A study of Mus musculus with 2 samples.

Results

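Annexins are proteins that bind negatively charged phospholipids when calcium is present, through a core of repeated folds that the family shares. They act at membranes, in vesicle traffic, in the repair of torn plasma membrane and in the organisation of the cytoskeleton below it, and several pair with small calcium-binding S100 proteins. In the liver they are known from hepatocytes and from endothelial, stellate, bile duct and immune cells. The 8 annexin genes described here are Anxa1, Anxa2, Anxa3, Anxa4, Anxa5, Anxa6, Anxa7 and Anxa11, out of 19073 features measured in both libraries. They were chosen by family membership and by their UMI counts in these libraries, which were known when the set was drawn up, so that all values below are descriptions with no test.

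The cells came from livers of male p16-Tom mice, in which a tamoxifen-activated Cre recombinase is expressed from the p16Ink4a gene and tamoxifen permanently switches on the red fluorescent protein tdTomato in cells that transcribe p16Ink4a at that time. All mice were on a C57BL/6 background, heterozygous, and had been given carbon tetrachloride (CCl4), which injures hepatocytes around the central vein, for 4 weeks together with tamoxifen, and no untreated library was used here. Tissue was fixed, dissociated and sorted for a DNA dye and a mitochondrial dye into a reporter-negative (Tom-) and a reporter-positive (Tom+) fraction, each of which gave 1 library. The reporter marks past transcription of p16Ink4a and does not itself measure its present level. By quantitative PCR on hepatocytes sorted after CCl4, the paper reported more p16Ink4a RNA in Tom+ than in Tom- cells. The number of mice behind each library and their age were not given in the sources used here, and with 1 library in each group no test between the groups was possible.

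There were 23220 barcodes in the Tom- library and 16339 in the Tom+ library, with totals of 681279005 and 715333889 unique molecular identifiers (UMIs, each counting 1 captured molecule). In the 2 libraries 503 barcode sequences occurred in both, 372 of them among cells that were kept, and these were left in. Hepatocytes numbered 10410 in Tom- and 9405 in Tom+, with median depths of 32148.5 and 35151 UMIs. Their position along the liver lobule, from the portal vein (zone 1) to the central vein (zone 3), was read from a score of 12 zone 3 genes minus 12 zone 1 genes, none of them an annexin, and the hepatocytes of both libraries were divided by it into 5 ranges of equal size. Position 1 is the portal end and position 5 the central end. These ranges are slices of a continuous score, and between 278 and 919 of the 19815 hepatocytes lay within 0.05 of each of the 4 limits. From position 1 to 5 there were 2862, 2588, 2490, 1445 and 1025 Tom- hepatocytes and 1101, 1375, 1473, 2518 and 2938 Tom+ hepatocytes. The reporter transcript averaged 80.0 counts per 1000000 UMIs (CPM) in Tom- and 775.5 CPM in Tom+ hepatocytes over the 5 positions. Hepatocyte clusters in which at least 90% of cells were Tom+ held 76 Tom- and 2026 Tom+ cells, and the matched ratio of each annexin between the libraries is therefore given with and without them.

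The assay hybridised probes to short stretches of each transcript, so each gene is compared with itself only. No pair among the 28 pairs of these annexins shared a stretch of 25 bases in their annotated protein-coding transcripts. In the mm10 genome the genes are spread over 7 chromosomes, with Anxa7 and Anxa11 both on chromosome 14 but far apart. Anxa2 lies at chr9:69453620-69491795 on the plus strand, Anxa7 at chr14:20455260-20480133 on the minus strand and Anxa6 at chr11:54979108-55033445 on the minus strand, and these were the 3 members whose levels differed most between the ends of the lobule among those with at least 10 CPM. RefSeq promoter sequences of build GRCm38.p6 were matched for 6 of the 8 members, Anxa6 and Anxa3 not among them. The bases just upstream of the start of Anxa2 and of Anxa7 are shown because both genes rose toward the central vein. Capitals mark GGGCGG (or its reverse complement), the GC box that Sp1 family factors bind, and TGANTCA, the site of AP-1 factors.
Anxa2, chr9:69453433-69453619, plus strand: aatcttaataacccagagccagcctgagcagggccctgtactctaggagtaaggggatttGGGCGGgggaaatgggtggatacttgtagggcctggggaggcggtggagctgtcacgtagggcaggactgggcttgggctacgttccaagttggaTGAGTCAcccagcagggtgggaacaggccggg
Anxa7, chr14:20480134-20480383, minus strand: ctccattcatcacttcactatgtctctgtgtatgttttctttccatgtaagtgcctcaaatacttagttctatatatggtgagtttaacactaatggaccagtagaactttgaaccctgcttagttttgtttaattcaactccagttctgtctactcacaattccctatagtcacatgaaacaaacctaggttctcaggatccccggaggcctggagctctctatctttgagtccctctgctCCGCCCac

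Searched on both strands, the Anxa2 stretch held 1 match to GGGCGG and 1 to TGANTCA, which did not overlap, and the Anxa7 stretch held 1 match to GGGCGG. Of 32851 RefSeq promoters, 32.7% held GGGCGG and 6.75% held TGANTCA in the 250 bases before the start, a longer window than the 187 bases shown for Anxa2. CTTTGAT, a form of the site of the Wnt-responsive TCF factors, occurred in 3.21% of promoters and TATAAA in 12.4%. Neither was found in the bases searched for Anxa2, Anxa4, Anxa5, Anxa7 and Anxa11. For Anxa1 no bases outside the annotated gene were left to search. A match or its absence says nothing on binding.

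In hepatocytes the annexins fell into 3 kinds of pattern along the lobule. Anxa2 and Anxa7 rose toward the central vein in both libraries, Anxa6 rose toward the portal vein, Anxa4, Anxa5 and Anxa11 differed less, and Anxa1 and Anxa3 were below the level minimum. Of the 6 members with at least 10 CPM at either end, Anxa2 and Anxa7 were at least 1.5-fold higher at the central end in each library, beside 11.6% of all genes tested in Tom- and 12.9% in Tom+. Anxa6 was the 1 member at least 1.5-fold lower there, beside 5.3% of genes in Tom- and 5.2% in Tom+. Anxa2 was under 10 CPM at the portal end (0.889 CPM in Tom- and 1.33 CPM in Tom+). It was tested only through its central level, so its call was fixed by its entry. The median gene itself was 0.18 higher on the log2 scale at the central than at the portal end in Tom- and 0.23 higher in Tom+, a shift that scaling by the median of gene ratios brought to -0.02 in both, and log2 differences along the lobule below are to be read against it. All intervals are 95% intervals from the counts, they cover counting error only, and the spread between mice is not in them.

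**Figure D1:**
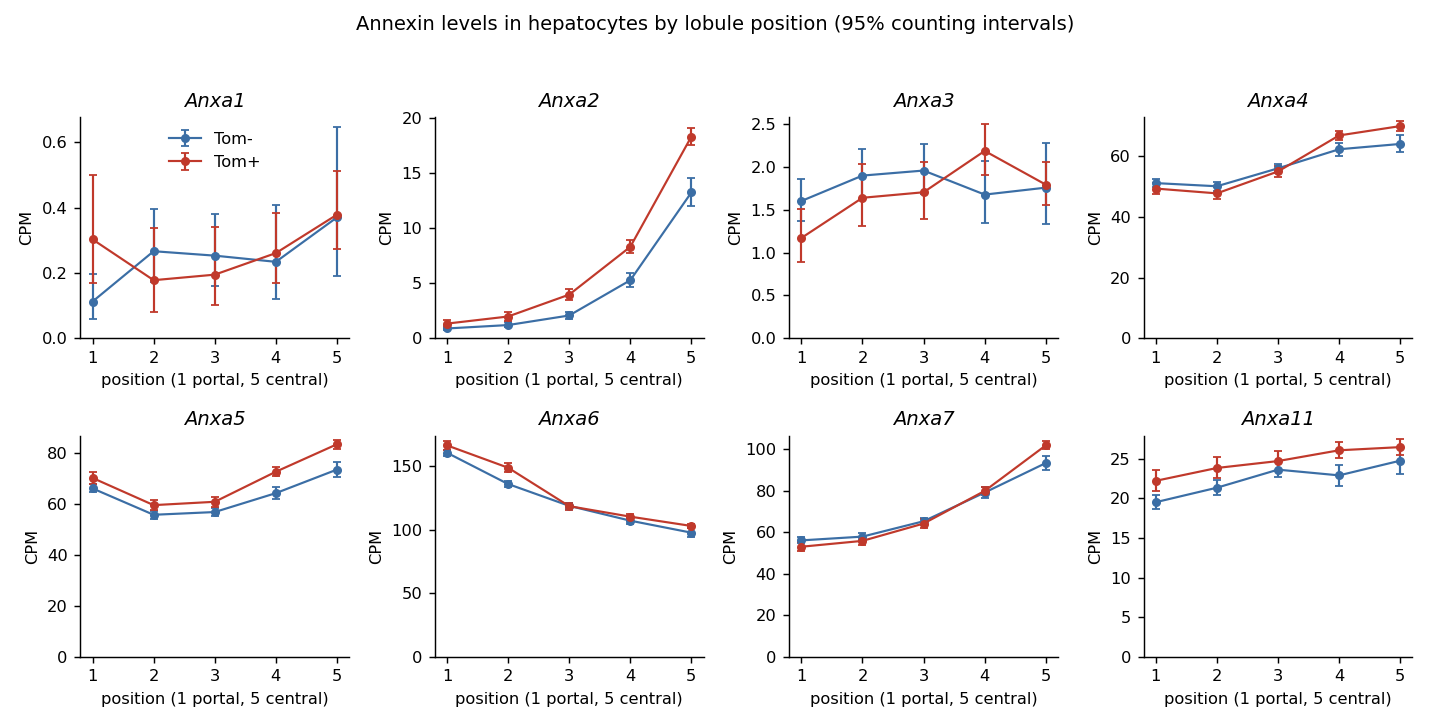
Level of each annexin in hepatocytes (CPM, y axis from 0, a scale of its own for each gene) at lobule positions 1 (portal end) to 5 (central end), with Tom- in blue and Tom+ in red. Points are sums over all cells of a range and bars are 95% counting intervals. Anxa2 and Anxa7 climb to position 5, where Anxa2 reaches 13.2 CPM in Tom- and 18.3 CPM in Tom+, and Anxa6 falls at every step.

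Anxa2 pairs with S100a10 at the plasma membrane, where the pair binds plasminogen and its activator. From position 1 to 5 its level was 0.889, 1.2, 2.07, 5.26 and 13.2 CPM in Tom-, and 1.33, 1.97, 3.96, 8.29 and 18.3 CPM in Tom+. Tom+ was thus above Tom- at each of the 5 positions, and within each library only the intervals of positions 1 and 2 overlapped. The log2 difference of central over portal end was 3.89 (3.57 to 4.23) in Tom- and 3.78 (3.43 to 4.16) in Tom+, or 14.9-fold and 13.7-fold, intervals that overlap. The size in Tom- depended on the setting, with log2 differences from 3.04 with a score of Cyp2e1 and Cyp2f2 alone to 4.36 with 10 ranges, and 3.22 after thinning to 5000 UMIs, and in Tom+ it ran from 3.34 to 4.26. It was also seen in the share of cells: after each cell was thinned to 5000 UMIs, 0.629% of Tom- cells at position 1 and 7.04% at position 5 had at least 1 Anxa2 UMI, and in Tom+ 0.546% and 8.18%. Without thinning these shares were 3.28% and 31.3% in Tom- and 5.72% and 42.6% in Tom+. Thinning left out 43 Tom- and 36 Tom+ cells, and as no cell class here is known to lack Anxa2, the share given by free RNA alone was not measured.

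Anxa7, first known as synexin and named for its part in membrane fusion during secretion, showed a shallower climb. Its level was 56.1, 57.9, 65.3, 79.2 and 93.4 CPM from position 1 to 5 in Tom-, and 53.0, 55.9, 64.2, 79.9 and 102 CPM in Tom+. It rose in every step in both libraries, with overlapping intervals between positions 1 and 2 only. The log2 difference between the ends was 0.74 (0.67 to 0.80) in Tom- and 0.94 (0.88 to 1.00) in Tom+. The Tom+ library was lower at position 1 and higher at position 5, and its cells at position 5 also had a higher mean position score (2.35 against 2.13), whose part in the difference was not tested. Under scaling by the median of gene ratios the value was 0.54 in Tom-, under the 1.5-fold limit, and 0.69 in Tom+.

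Anxa6, the largest member of the family, whose annexin core is duplicated and which acts on endosomes and in cholesterol traffic, ran the other way. Its level was 160, 136, 119, 107 and 97.5 CPM from position 1 to 5 in Tom-, and 166, 149, 118, 110 and 103 CPM in Tom+. No neighbouring intervals within a library overlapped. Between the ends it fell by 0.72 (0.66 to 0.77) on the log2 scale in Tom- and by 0.69 (0.65 to 0.73) in Tom+. With zone-like clusters in place of the score it fell by 0.58 in Tom+, just short of 1.5-fold.

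Anxa4, which binds secretory and apical membranes of epithelial cells, was at 51.1, 50.1, 56.0, 62.2 and 64.0 CPM in Tom- and at 49.3, 47.7, 54.9, 66.8 and 69.9 CPM in Tom+. It was lowest at position 2 and highest at position 5 in both, with a log2 difference between the ends of 0.33 (0.25 to 0.40) in Tom- and 0.50 (0.44 to 0.57) in Tom+. Anxa5, the annexin used to stain phosphatidylserine on dying cells, was lowest at position 2 as well and formed a shallow U. Its level was 66.2, 55.8, 56.9, 64.3 and 73.6 CPM in Tom- and 70.3, 59.6, 60.9, 72.8 and 83.6 CPM in Tom+. The log2 difference between the ends was 0.15 in Tom- and 0.25 in Tom+, close to that of the median gene, and its sign turned under scaling by the median of gene ratios (-0.04 in Tom- and -0.0047 in Tom+). Anxa11, which tethers RNA granules to lysosomes and takes part in the last step of cell division, was at 19.5, 21.3, 23.6, 22.9 and 24.8 CPM in Tom- and at 22.2, 23.8, 24.7, 26.1 and 26.5 CPM in Tom+. Its log2 difference between the ends was 0.34 in Tom- and 0.25 in Tom+, and under the same scaling it came to 0.15 in Tom- and -0.000856 in Tom+.

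The remaining pair was low in hepatocytes. Anxa3, known from neutrophil granules, lay between 1.60 and 1.96 CPM in Tom- and between 1.17 and 2.19 CPM in Tom+. Its log2 difference between the ends was 0.13 (-0.32 to 0.57) in Tom- and 0.62 (0.19 to 1.06) in Tom+, at levels under the minimum of 10 CPM. Anxa1, a ligand of formyl peptide receptors that dampens inflammation, had 83 UMIs in all Tom- hepatocytes and 104 in all Tom+ hepatocytes. Its levels lay between 0.112 and 0.370 CPM in Tom- and between 0.178 and 0.378 CPM in Tom+, above the level of 3 UMIs in each range (at most 0.0925 CPM). The central end was 1.72 (0.436 to 3.002) above the portal end on the log2 scale in Tom-, and in Tom+ the difference was 0.32 (-0.56 to 1.28). After thinning to 5000 UMIs these were 1.83 and 1.53, on few UMIs. Among the thinned cells counted for shares, 2 at position 1 and 4 at position 5 held Anxa1 in Tom-, and 3 and 5 in Tom+. The mean there rose from 0.000699 to 0.00391 UMIs per cell in Tom-. In Tom+ it fell from 0.00273 to 0.00205, opposite in sign to the 1.53.

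At matched position, most annexins differed little between Tom+ and Tom- hepatocytes, and Anxa2 was the member with the largest difference. The matched level is the mean CPM of the 5 positions with equal weight, because Tom+ cells lie closer to the central vein. Of the 5 members with at least 10 CPM, 0 were 1.5-fold higher in Tom+ (beside 0.218% of 7811 genes) and 0 were 1.5-fold lower (0.0384%). With a minimum of 1 CPM, set after the data were seen, 7 members entered and again 0 were past 1.5-fold in either direction, beside 0.597% higher and 0.351% lower of 10545 genes. At position 5, where Anxa2 was above 10 CPM, 0 of 6 members were past 1.5-fold, beside 0.276% of genes higher and 0.175% lower. The median log2 ratio of the 5 members was 0.06 and that of all genes tested was -0.0074.

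Anxa2 averaged 4.53 CPM in Tom- and 6.77 CPM in Tom+ hepatocytes at matched position. The log2 ratio was 0.58 (0.47 to 0.69), or 1.49-fold, just under the limit of 1.5-fold. From position 1 to 5 the log2 ratio was 0.58, 0.72, 0.94, 0.66 and 0.47, with each interval above 0. Within positions 1, 3, 4 and 5 Tom+ cells had the higher mean position score, at position 5 2.35 against 2.13, and at position 2 the lower. The part of this in the ratios was not tested. At position 3 the richest Tom+ cell held 31 of 244 UMIs, and at position 4 the richest Tom- cell held 29 of 270. The counting intervals do not allow for such cells. When all hepatocytes were pooled without matching, the values were 2.93 and 8.77 CPM and the log2 ratio was 1.58 (1.48 to 1.68), a ratio that also holds the unequal spread of the libraries along the lobule. Without the clusters that were at least 90% Tom+, the matched levels were 4.51 and 5.31 CPM and the log2 ratio was 0.24 (0.12 to 0.35), or 1.18-fold. The intervals of positions 1 and 4 then included 0, with 5.25 CPM in Tom- and 5.41 CPM in Tom+ at position 4. Over 16 alternative settings it ranged from 0.24 to 0.89, above 0 in each and past 1.5-fold in 9.

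The clusters left out in that comparison differed from one another. Hepatocyte cluster 6, of 39 Tom- and 1540 Tom+ cells and zone 3-like by its markers, had 21.2 CPM of Anxa2 over both libraries, against 14.3 CPM in the zone 3-like cluster 1 of 1021 Tom- and 2249 Tom+ cells. Anxa2 was among the 10 leading genes of cluster 6, ranked by their level over the other hepatocytes, so this level is not a separate result. Clusters picked for their Tom+ share take cells almost only from Tom+. A lower Anxa2 ratio without them is therefore in part built in. The same cluster held 122 CPM of Anxa7, 104 CPM of Anxa5 and 77.2 CPM of Anxa4, against 86.7, 73.4 and 66.3 CPM in cluster 1. Cluster 8, zone 1-like with 37 Tom- and 465 Tom+ cells, had 2.13 CPM of Anxa2 and 188 CPM of Anxa6, against 1.08 and 159 CPM in the zone 1-like cluster 0. Cluster 13, also left out, had 0 Tom- and 21 Tom+ cells with a median depth of 6899 UMIs, and 25.5 CPM of Anxa2. Cluster 9, of 186 Tom- and 183 Tom+ cells, was not among those left out. Led by interferon-induced genes such as Rsad2 and Ifit3, it had 12.3 CPM of Anxa2, 3.52 CPM of Anxa3 and 90.7 CPM of Anxa5.

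**Figure D2:**
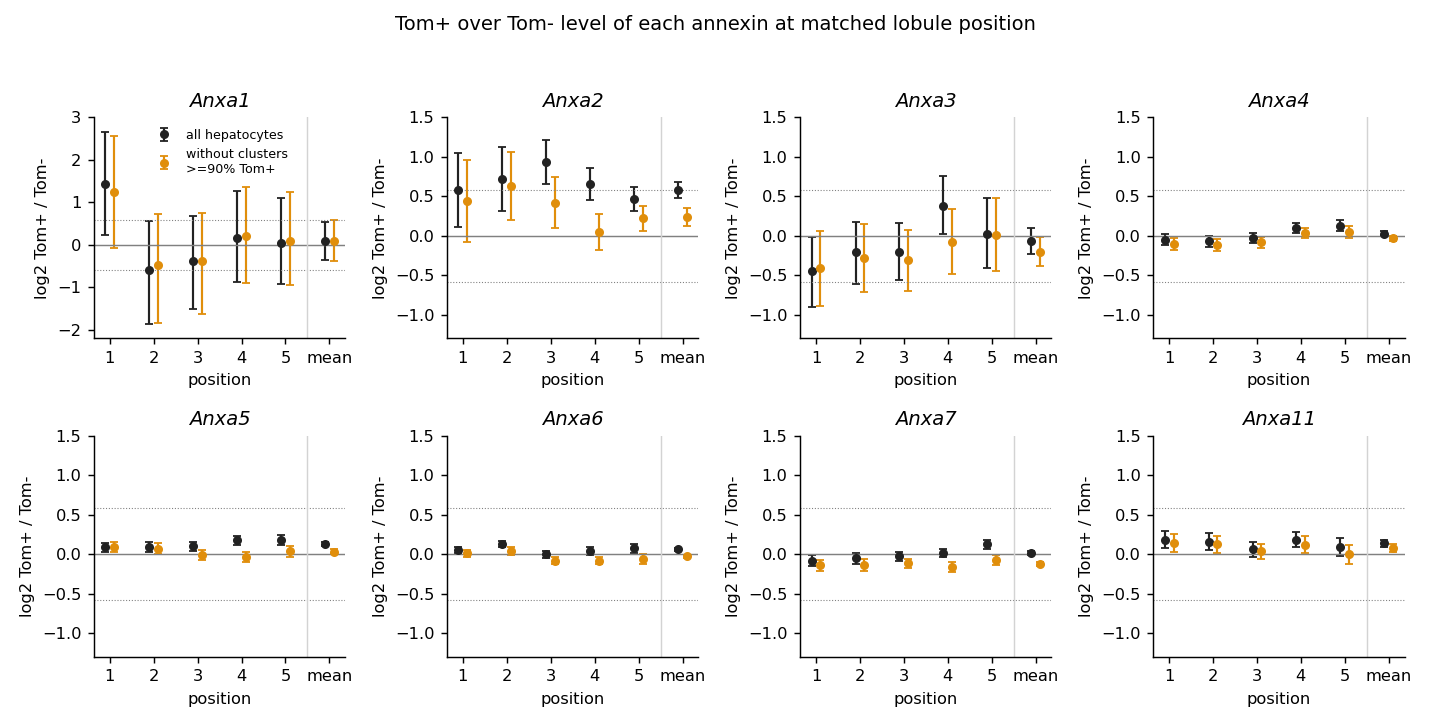
Log2 ratio of Tom+ over Tom- level (y axis) for each annexin at positions 1 to 5 and for the mean of the 5 positions, in all hepatocytes (black) and without clusters of at least 90% Tom+ cells (orange). Bars are 95% counting intervals, dotted lines mark 1.5-fold, and the y axis of Anxa1 is wider than the others. Anxa2 lies above 0 at every position in all hepatocytes and moves toward 0 in orange, where its mean is 0.24.

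The other members were closer to equal. Anxa5 averaged 63.4 CPM in Tom- and 69.4 CPM in Tom+, a log2 ratio of 0.13 (0.10 to 0.16), and Anxa11 averaged 22.4 and 24.7 CPM, a log2 ratio of 0.14 (0.09 to 0.18). Both were higher in Tom+ under all 16 alternatives, at 0.03 for Anxa5 and 0.08 for Anxa11 without the clusters of at least 90% Tom+ cells. Anxa6 averaged 124 and 129 CPM (0.06), Anxa4 56.7 and 57.7 CPM (0.03) and Anxa7 70.4 and 71.0 CPM (0.01). Without those clusters the log2 ratios of these 3 were -0.03, -0.03 and -0.12, so that their sign turned. Anxa3, at 1.78 and 1.70 CPM, had a log2 ratio of -0.07 (-0.23 to 0.10), and Anxa1, at 0.247 and 0.263 CPM, one of 0.09 (-0.37 to 0.54). At position 1 alone Anxa1 was higher in Tom+ (1.43, 0.23 to 2.66), on 12 UMIs in Tom- and 15 in Tom+. At positions 2 and 3 its ratio was below 0, with intervals that included 0. Without those clusters Anxa3, at 1.78 and 1.54 CPM, came to -0.20 (-0.39 to -0.02), and Anxa1 to 0.09 (-0.39 to 0.58).

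RNA of other cell types within hepatocyte barcodes moved with position and library too. The summed level of 10 macrophage markers was 165 to 231 CPM over the 5 positions in Tom- and 120 to 187 CPM in Tom+, and that of endothelial markers 129 to 150 and 116 to 134 CPM. Stellate markers came to 40.4 to 92.8 CPM in Tom- and 34.1 to 81.9 CPM in Tom+, rising toward the central end. When thinned to 5000 UMIs, 1569 Tom- and 1705 Tom+ hepatocytes had no UMI of the markers of other cell types. Among these cells the matched log2 ratio of Anxa2 was 0.62, against 0.58 in all hepatocytes. That of Anxa5 was 0.07, of Anxa6 0.0097, of Anxa7 -0.07 and of Anxa1 0.83. The Anxa1 value rests on few UMIs, as all hepatocytes held 83 in Tom- and 104 in Tom+. At this depth a cell can lack marker UMIs by chance. These cells need not carry less RNA of other cells, and the part of such RNA in the ratios was not tested.

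Within each library, Anxa2 also followed the amount of reporter transcript. Cells of each library and position were divided by tdTomato level into 4 groups of equal size, numbered from 1 (lowest) to 4, and the 5 positions averaged. In Tom- the reporter went from 13.9 CPM in group 1 to 213 CPM in group 4 and Anxa2 was at 3.85, 4.41, 4.56 and 5.70 CPM, a log2 difference of 0.57 between groups 1 and 4. In Tom+ the reporter went from 306 to 1549 CPM and Anxa2 was at 6.05, 6.82, 7.04 and 7.48 CPM (0.30). Without the clusters of at least 90% Tom+ cells, the Tom+ values were 4.04, 5.34, 5.61 and 6.58 CPM (0.70). Group 1 of Tom+ had more reporter than group 4 of Tom-. In all hepatocytes its Anxa2 was at 6.05 CPM (5.64 to 6.47), against 5.70 CPM (4.94 to 6.46) in group 4 of Tom-. With those clusters left out its interval (3.64 to 4.44 CPM) lay below that of group 4 of Tom- (4.93 to 6.46 CPM). Leaving them out took group 1 of Tom+ from 2354 to 1719 cells and group 4 of Tom- from 2601 to 2580. The order without them thus follows in part from the choice of clusters.

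Anxa11 went from 20.3 to 26.1 CPM from group 1 to 4 in Tom- (0.37) and from 24.0 to 25.6 CPM in Tom+ (0.09), Anxa6 from 130 to 114 CPM in Tom-, and Anxa7 from 73.9 to 65.6 CPM in Tom+. Cell depth moved with the reporter. The median over the same groups went from 38241 to 24212 UMIs in Tom- and from 47017 to 28792 UMIs in Tom+, and the mean position score rose from -0.073 to -0.0088 and from 0.0045 to 0.064. The summed level of endothelial markers went from 133 to 154 CPM in Tom- and from 131 to 126 CPM in Tom+, that of cholangiocyte markers from 33.0 to 36.7 and from 31.9 to 32.3 CPM, and that of macrophage markers from 214 to 213 and from 167 to 159 CPM. The part of these in these differences was not tested.

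**Figure D3:**
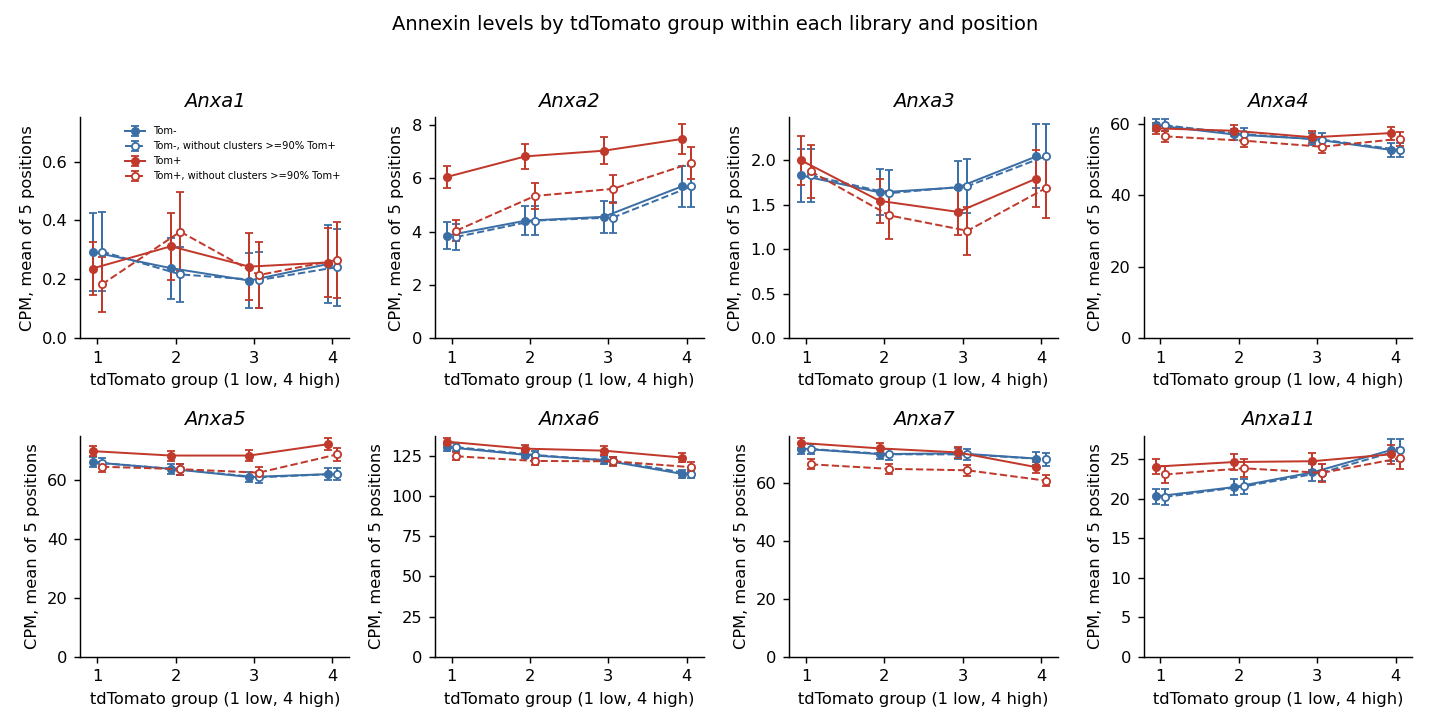
Level of each annexin (CPM, mean of the 5 positions) in hepatocytes divided by tdTomato level into groups 1 (low) to 4 (high) within each library and position, with Tom- in blue and Tom+ in red, filled points for all hepatocytes and open points without clusters of at least 90% Tom+ cells. Bars are 95% counting intervals and each gene has its own axis from 0. Anxa2 is higher in group 4 than in group 1 in all 4 series, and Anxa11 clearly so in Tom- (20.3 to 26.1 CPM).

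Outside the hepatocytes, Anxa1, Anxa2, Anxa3 and Anxa5 were the members with higher levels, each in several cell classes, and in the 5 clusters plotted Anxa7 and Anxa11 lay within 1.5-fold of hepatocytes, apart from Anxa11 in the Tom+ cells of the cholangiocyte-like cluster. The summed level of hepatocyte genes in the clusters described below was between 83.0% and 112% of that in hepatocytes, so that their profiles are mixtures with hepatocyte RNA and the levels below are those of mixtures. A sort for mitochondria-rich cells also chose which of them were seen. A log2 difference is given against the hepatocytes of the same library.

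Of the 3 stellate-like clusters, that of 172 Tom- and 63 Tom+ cells, with all 12 stellate and fibroblast markers and the lowest median depth (5452 UMIs), had the largest excess of Anxa1 among the 5 clusters plotted. Anxa1 was at 19.9 CPM (30 UMIs) in Tom- and 33.2 CPM (17 UMIs) in Tom+, 6.48 and 6.90 above hepatocytes on the log2 scale. Anxa2 was at 70.9 and 46.9 CPM (4.60 and 2.42 above) and Anxa3 at 76.8 and 102 CPM (5.43 and 5.84). Anxa5 was at 156 and 139 CPM (1.33 and 0.95), and these 4 of 8 members were at least 1.5-fold higher in both libraries, beside 30.9% of genes in Tom- and 34.9% in Tom+. Anxa1, Anxa2 and Anxa3 were under 10 CPM in hepatocytes and were tested only through their level in this cluster. The calls of Anxa1 and Anxa3, and that of Anxa2 in Tom-, were thus fixed by their entry. Anxa6, at 184 and 182 CPM, was 0.48 and 0.57 above. The cluster also carried 7 of 10 macrophage markers. In the other stellate-like clusters, of 33077 and 40523 UMIs in the median cell, these levels were lower. In that of 305 Tom- and 406 Tom+ cells Anxa1 was at 1.12 and 0.768 CPM and Anxa2 at 8.33 and 8.76 CPM, 1.51 above hepatocytes in Tom- and -0.00083 from them in Tom+, with an interval of -0.26 to 0.25. In that of 397 and 270 cells Anxa1 was at 4.84 and 2.78 CPM and Anxa2 at 8.87 and 15.5 CPM (1.60 and 0.83).

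Of 2 endothelial-like clusters, that of 409 Tom- and 155 Tom+ cells had the lower median depth (9634.5 UMIs), and it also carried 5 stellate and 2 macrophage markers. In it, Anxa2, Anxa3 and Anxa5 were at least 1.5-fold above hepatocytes in both libraries, 3 of the 7 members tested, beside 18.5% of genes in Tom- and 20.6% in Tom+. Anxa2 and Anxa3 were under 10 CPM in hepatocytes and were tested only through their level in this cluster. The calls of Anxa3, and that of Anxa2 in Tom-, were thus fixed by their entry. Anxa3 stood out with 43.8 and 58.8 CPM (4.62 and 5.05), Anxa2 was at 17.3 and 29.4 CPM (2.56 and 1.75), and Anxa5 at 112 and 135 CPM (0.86 and 0.91). In the deeper 1 of the pair, of 900 and 350 cells, Anxa3 was at 9.24 and 9.12 CPM (2.37 and 2.36), Anxa2 at 3.33 and 3.47 CPM (0.18, with an interval of -0.08 to 0.44, in Tom- and -1.34 in Tom+) and Anxa5 at 70.4 and 71.9 CPM (0.19 and -0.00068). A further cluster, of 487 and 563 cells, carried 11 endothelial markers but was left unnamed because none of them was among its 10 leading genes. Its Anxa2 was at 7 CPM in Tom- and 10.6 CPM in Tom+ (1.26 and 0.27 above hepatocytes) and its Anxa3 at 11.2 and 12.4 CPM (2.66 and 2.81).

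Macrophage markers named 3 clusters. In that of 802 Tom- and 92 Tom+ cells, Anxa3 alone was past 1.5-fold among the 6 (Tom-) and 7 (Tom+) members tested, at 17.5 and 15.1 CPM (3.30 and 3.08), beside 6.09% and 4.44% of genes. Anxa3 was under 10 CPM in hepatocytes and was tested only through its level in this cluster, so its call was fixed by its entry. Anxa2, at 8.72 CPM in Tom- and 11.2 CPM in Tom+, passed the level minimum in Tom+ only, and its log2 difference from hepatocytes was 1.57 in Tom- and 0.36 (-0.17 to 0.84) in Tom+. In a deeper macrophage-like cluster of 241 and 131 cells Anxa2 was at 2.11 and 1.97 CPM (-0.47 and -2.15), and in that of 211 and 71 cells at 2.45 and 2.23 CPM (-0.26 and -1.98). Both lay below the pooled hepatocytes in Tom+. In Tom- the intervals of the log2 difference, -1.14 to 0.12 and -0.96 to 0.36, included 0. The cluster levels were close in both libraries. The contrast lies in the pooled hepatocyte levels, 2.93 CPM in Tom- and 8.77 CPM in Tom+, which were not matched for position. In these clusters Anxa3 was at 16.4 and 18.5 CPM and at 6.99 and 4.77 CPM. A cluster of 372 and 384 cells that carried all 10 macrophage markers, none of them among its 10 leading genes, was left unnamed, and its Anxa2 was at 6.24 and 12.2 CPM, above hepatocytes in both libraries (1.09 and 0.48). At a median depth of 44024 UMIs, its Anxa3 was at 24.3 and 25.2 CPM (3.77 and 3.82).

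A cluster of 355 Tom- and 122 Tom+ cells had a low median depth, 6237 UMIs. It carried all 10 macrophage markers together with 6 stellate and 4 endothelial ones and was left unnamed. Its leading genes were Gpnmb, Adam8 and Hpgds, the first of them known from lipid-laden macrophages. It held the highest Anxa3 level of the clusters described, 170 CPM (156 to 185) in Tom- and 232 CPM (205 to 262) in Tom+, or 6.58 and 7.03 above hepatocytes. Anxa2 (27.5 and 35.6 CPM), Anxa5 (130 and 149 CPM) and, in Tom- only, Anxa4 (88.7 CPM) were past 1.5-fold as well. That made 4 of 7 members in Tom- and 3 of 7 in Tom+, beside 33.6% and 32% of genes. Here too Anxa2 and Anxa3 were tested only through their level in the cluster. The calls of Anxa3, and that of Anxa2 in Tom-, were fixed by their entry.

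The cholangiocyte-like cluster, which holds bile duct markers such as Krt19 and Epcam and only 51 Tom- and 15 Tom+ cells, had Anxa4 at 103 and 165 CPM (0.91 and 1.44 above hepatocytes) and Anxa5 at 203 and 150 CPM (1.71 and 1.06). Anxa1 had 0 UMIs in Tom-, which allows up to 1.89 CPM, and 3 UMIs in Tom+. In Tom-, Anxa2, Anxa3, Anxa4 and Anxa5 were past 1.5-fold of 7 members, beside 8.51% of genes, and with 15 Tom+ cells no share is given for that library. Anxa2 and Anxa3 were tested only through their level in this cluster, so their calls in Tom- were fixed by their entry. Anxa11 was at 21.0 CPM in Tom- and 53.6 CPM in Tom+.

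Smaller classes held few counts. A mesothelial-like cluster of 36 Tom- and 15 Tom+ cells had Anxa1 at 24.4 CPM (18 UMIs) in Tom- and 1 UMI in Tom+. A leukocyte cluster led by the neutrophil genes S100a9 and S100a8, of 32 and 13 cells, had Anxa1 at 12.4 CPM (11 UMIs) in Tom- and 3 UMIs in Tom+. Its Anxa3, at 12.4 and 7.25 CPM, was below the values of the unnamed cluster of 355 and 122 cells. In a T and NK cell leukocyte cluster of 54 and 28 cells, Anxa1 had 3 UMIs in Tom- and 1 in Tom+.

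**Figure D4:**
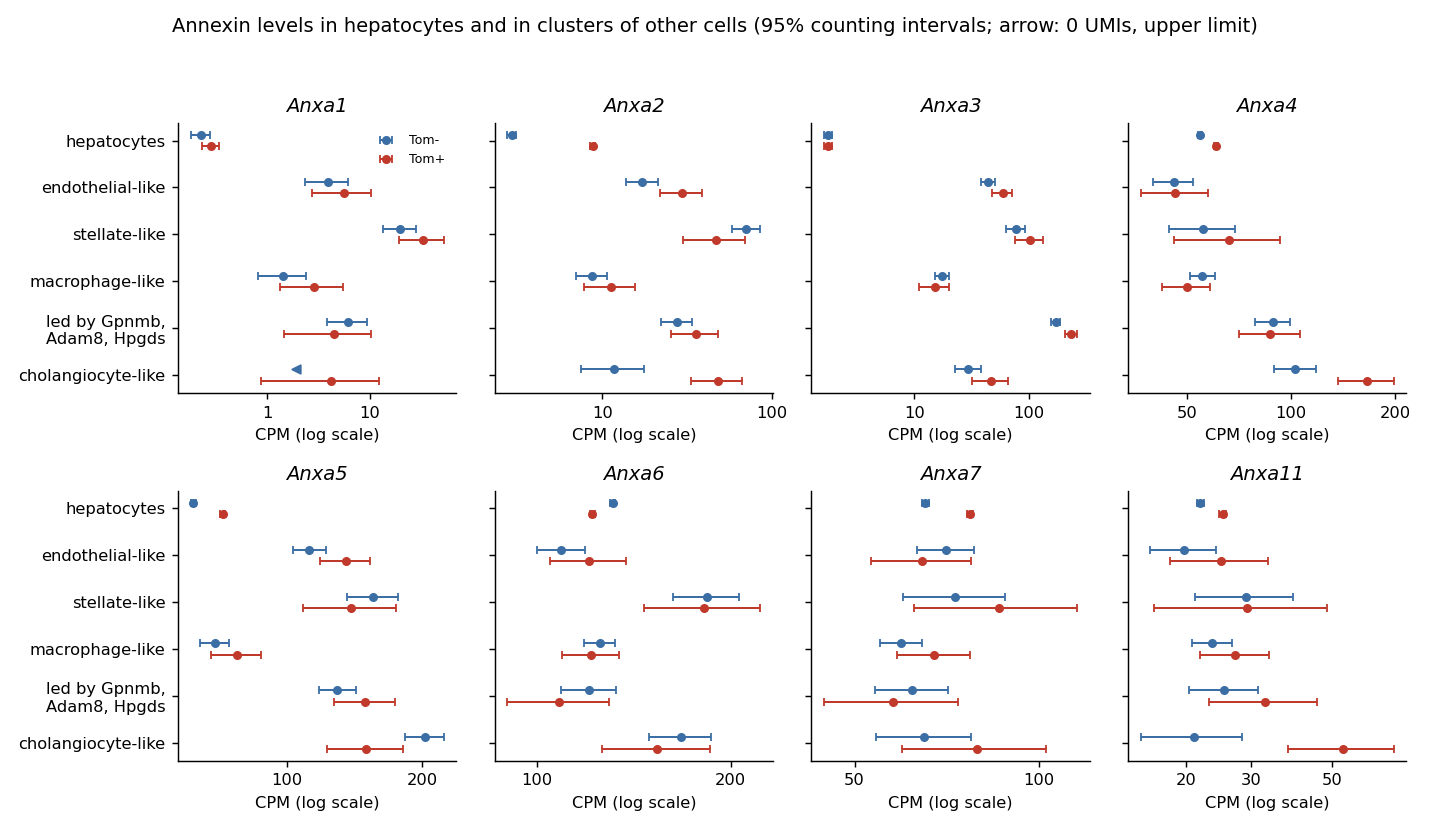
Level of each annexin (CPM, log axis, a range of its own for each gene) in hepatocytes and 5 clusters of other cells, with Tom- in blue and Tom+ in red and 95% counting intervals as bars. The arrow marks 0 UMIs at its upper limit of 1.89 CPM. Anxa3 spans from 1.78 CPM in hepatocytes to 232 CPM in the unnamed cluster, whereas Anxa7 intervals overlap across most clusters.

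Over 50 profiles, made of the hepatocyte positions and the other clusters of both libraries, the 3 genes with the most similar pattern to each member were found by Pearson correlation of log2(CPM + 1) among 10915 genes. For Anxa2 these were Eid1 (0.93), S100a11 (0.92) and Polr3gl (0.90), and S100a11 is one of the S100 proteins that bind annexins. For Anxa3 they were Rab31 (0.98), Itga9 (0.97) and Slc25a36 (0.97), and for Anxa1 Cadm3 (0.94), Cebpd (0.93) and Dennd2a (0.93). For Anxa7 they were Fam102a (0.90), Npr2 (0.88) and Cdkn1c (0.88), for Anxa6 Bmyc (0.82), Frmd8 (0.81) and Arhgap6 (0.81), and for Anxa5 Nucb2 (0.85), Nenf (0.85) and Mfge8 (0.83). Anxa11 was closest to Mon2 (0.88), Slc9a8 (0.83) and Tcta (0.82), and Anxa4 had no profile closer than Slc27a1 (0.74), Efhd2 (0.69) and Pdgfc (0.67). Among the members themselves, Anxa2 ran closest with Anxa5 (0.76) and Anxa1 (0.76), and Anxa6 opposed Anxa7 (-0.42). The profiles share 2 libraries and hepatocyte RNA, so these values describe likeness only.

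A list of 16 partners, made of annexin-binding S100 genes, formyl peptide receptors, plasminogen system, membrane repair and calcium-binding genes, was measured at the same matched positions. Of its 4 members with at least 10 CPM, 0 were past 1.5-fold, beside 0.218% of 7811 genes higher and 0.0384% lower. The median log2 ratio of these partners was -0.06. S100a10, the partner of Anxa2, averaged 150 CPM in Tom- and 145 CPM in Tom+ (-0.05).

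S100a11, picked from the list with its values known, went the way of Anxa2 in all hepatocytes. Like the other partners it was not measured without the clusters of at least 90% Tom+ cells. It was at 2.36, 2.53, 2.88, 4.17 and 5.67 CPM from position 1 to 5 in Tom- and at 2.74, 2.76, 3.80, 7.34 and 8.82 CPM in Tom+, with a matched log2 ratio of 0.53 (0.42 to 0.64). Plg, which encodes plasminogen, was at 1453 and 1527 CPM. Fpr1, a receptor of Anxa1, was at 0.645 and 0.394 CPM, under the minimum of 1 CPM. Of the other annexin genes in the probe set, Anxa9 was at 1.87 and 2.14 CPM (0.19), and Anxa8 and Anxa10 had 1 and 2 UMIs in Tom- hepatocytes and 0 in Tom+.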

How the data were processed

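Single-cell RNA levels were measured with the 10x Fixed RNA assay in 1 Tom- and 1 Tom+ library. The authors deposited raw UMI counts per feature and cell, not normalized, made with Cell Ranger 7.2.0 on mm10 (credited to the submitters' processing notes and the study's methods), with custom tdTomato probes added to the commercial probe set. Feature names paired with gene IDs came from the files, and gene positions from the GENCODE annotation of mm10.

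Cells were kept with a mitochondrial fraction of at most 0.05, 2000 to 10000 genes and at most 100000 UMIs, as in the study's methods, which left 20159 Tom- and 13378 Tom+ cells. Counts scaled to 10000 per cell were logged, 2000 variable genes and 30 components were used, and Leiden clusters were found at resolution 0.8 with 20 neighbours. Clusters with a median gene number under 0.75 of the overall median, and clusters in which Ptprc, Dcn or Pecam1 reached at least 2.5-fold the level of the median cluster, were not counted as hepatocytes (9408 Tom- and 3633 Tom+ cells). Hepatocyte sub-clusters whose 10 leading genes over the other hepatocytes held more markers of another class than of hepatocytes were set aside (341 and 340 cells), one of them (79 and 254 cells) for 1 marker, C1qb, against 0. Scrublet marked 1 of 20159 and 0 of 13378 cells as doublets, which shows that it did not work, so doublets were not removed.

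Sums of UMIs over each library and class were turned into CPM, and their intervals are exact Poisson ones. Ratios have exact conditional intervals, and averages over positions normal intervals from the counts. Shares have exact Clopper-Pearson intervals. With 1 library per group no test was made, and a gene was called when past 1.5-fold, provided that 1 of the sums reached 10 CPM and both together 20 UMIs. Likeness used a pseudocount of 1. The text names the 8 members, the other annexins of the probe set, 4 of the 16 listed partners, picked with their values known, and, for each member, the 3 genes of most similar profile, beside the leading genes of clusters. Members, gene lists and limits were chosen with earlier results of these data known. The script was checked on simulated counts. Python 3.11.15, scanpy 1.11.5, scipy 1.17.1 and numpy 2.4.6 were used. Anxa13 was not analysed here. The result of 1 listed partner is not reported here. Alternatives covered the position score, its ranges, cell filters, thinning, clustering, scaling and doublet scores. A minimum of 1 CPM, the return of the sub-cluster set aside for 1 marker and, for the counts along the lobule, a fold limit of 2 were added after seeing the data.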

Additional observations from a re-analysis of the deposited data

Results flagged for a closer look

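Barcodes outside the cell filters were not used at the reported settings, although those over the maxima entered 1 alternative, and several annexins stood higher there in Tom+ than in Tom-. Among barcodes with under 2000 genes and a mitochondrial fraction within the limit (2645 in Tom- and 1670 in Tom+), the log2 ratio of Tom+ over Tom- was 0.46 for Anxa2, 0.58 for Anxa3, 0.31 for Anxa5, 0.23 for Anxa7 and 0.42 for Anxa11. Levels there were also above those of all hepatocytes, with 32.9 CPM in Tom- and 45.3 CPM in Tom+ for Anxa2, 63.1 and 94.7 CPM for Anxa3, 99.8 and 124 CPM for Anxa5, and 11 and 14.2 CPM for Anxa1. Among barcodes with over 100000 UMIs or 10000 genes (360 and 1239), the log2 ratio was 1.78 for Anxa2, 0.31 for Anxa3, 0.0668 for Anxa4, 0.225 for Anxa5, 0.318 for Anxa7 and 0.305 for Anxa11. Neither set was matched for lobule position, and the values rest on 1 library per group.

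The direction of the Tom+ over Tom- ratio turned between positions, with intervals on both sides of 0, for a pair of members, and the difference was not tested. For Anxa1, Anxa4 and Anxa6 the sign turned as well, but not with intervals on both sides of 0. Anxa3 was lower in Tom+ at position 1 (log2 ratio -0.45) and higher at position 4 (0.38). At position 4 the richest Tom+ cell held 19 of 218 Anxa3 UMIs, which the counting interval does not allow for. Anxa7 was lower in Tom+ at position 1 (-0.0809) and higher at position 5 (0.13). Without the clusters of at least 90% Tom+ cells, the intervals of Anxa3 at both positions included 0, and Anxa7 was lower in Tom+ at all 5 positions, at -0.14 at position 1 and -0.08 at position 5.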

How the results depend on the processing

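Of the matched Tom+ over Tom- values under the 16 alternatives, 99 moved by less than their counting interval, 28 moved further and 1, whose interval had excluded 0, turned: Anxa6 at -0.0252 without the clusters of at least 90% Tom+ cells. Values whose interval included 0 also changed sign, in 2 alternatives for Anxa1, 5 for Anxa3, 1 for Anxa4 and 3 for Anxa7. The matched ratio ranged from 0.24 to 0.89 for Anxa2, 0.03 to 0.19 for Anxa5, 0.08 to 0.23 for Anxa11, -0.03 to 0.07 for Anxa4, -0.03 to 0.10 for Anxa6, -0.12 to 0.09 for Anxa7, -0.24 to 0.83 for Anxa1 and -0.45 to 0.72 for Anxa3. The lowest Anxa2 values came without those clusters (0.24) and after thinning to 5000 UMIs (0.36), the highest from a score of Cyp2e1 and Cyp2f2 alone (0.89). The counts of members past 1.5-fold in Tom+ stayed at 0, as they require 10 CPM, which Anxa2 (past 1.5-fold in 9 alternatives), Anxa1 and Anxa3 (in 1 each) did not reach, or 1 CPM at the reported settings, where Anxa2 was at 1.49-fold. With the sub-cluster set aside for 1 marker kept, which was tried after seeing the data, the ratio of Anxa2 was 0.60. Along the lobule, Anxa5 turned to -0.0684 in Tom- with the Cyp2e1 and Cyp2f2 score and to -0.0435 in Tom- and -0.00466 in Tom+ with median-of-ratios scaling, under which Anxa11 in Tom+ came to -0.000856. The number of members higher at the central end in Tom- was 1 in place of 2 with range limits from Tom- cells and with the Cyp2e1 and Cyp2f2 score (Anxa7, as Anxa2 was then under 10 CPM) and with median-of-ratios scaling (Anxa2). In Tom+ it was 3 after thinning (Anxa4 added) and with a minimum of 1 CPM (Anxa3 added). For these counts a fold limit of 2, chosen after seeing the data, left 1 member higher (Anxa2) and 0 lower in each library, and zone-like clusters left 0 lower in Tom+. At 3000 to 8000 genes the stellate-like and the unnamed cluster had no matching cluster and no value. No paired analysis was possible because there is 1 library per group, and for the same reason no replicate could be left out. Depth limits Anxa1 and Anxa3 in hepatocytes.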
